A study of Mus musculus with 16 samples.

Results

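The nuclear genes of oxidative phosphorylation were taken by name: the Ndufa, Ndufb, Ndufc, Ndufs and Ndufv subunits of complex I, Sdha to Sdhd of complex II, the Uqcr genes of complex III, the Cox4 to Cox8 subunits of complex IV and the Atp5 genes of ATP synthase, called complex V below. The names fit 87 of 21883 protein-coding genes on nuclear chromosomes in RefSeq's annotation of mm10 (GRCm38.p6). A gene was described where a deposited window of 5000 bp had its midpoint within 650 bp of the gene's transcription start site (TSS), which held for 81 of the 87 genes and for 19152 protein-coding genes in all. Of the 81 genes, 37 belong to complex I, 4 to complex II, 8 to complex III, 18 to complex IV and 14 to complex V. No window was shared by any pair of them. The genes left without a window include Ndufa4l2, Ndufb4b, Atp5d, Atp5g2 and Atp5j2.

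The assay was ATAC-seq, which uses a transposase to tag open chromatin with sequencing adaptors, applied to mouse embryonic stem cells (mESCs) of the genotype FOXD3-iKO kept in L2i medium. The labels give 4HT (tamoxifen) as the inducer of FOXD3 loss, EtOH as the other treatment, and 24 h as the treatment time. The 8 groups were 4HT cells of the G1, ES, LS and G2 fractions and EtOH cells of the same fractions, sorted by DNA content with DAPI. All 8 share the genotype and the medium, and whether the line is 1 clone was not given in the sources used here. Each group had 2 libraries but only 1 deposited column, without a replicate number, so each value is the authors' pooled value and has no SD. Depletion of FOXD3 was not checked, because accessibility does not measure the protein.

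Oxidative phosphorylation passes electrons from NADH and succinate along complexes I to IV to oxygen, and ATP synthase uses the proton gradient so built to make ATP. Most subunits are nuclear-encoded, translated in the cytosol and imported, and they are assembled with a small set of subunits encoded by mitochondrial DNA. Several complex IV subunits exist as pairs of genes, 1 used in most tissues and 1 restricted to heart and skeletal muscle, lung or testis.

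The start regions of these genes are shown first, because they hold short motifs that are textbook features of respiratory gene promoters. Sequences are from RefSeq on GRCm38.p6, read 5′ to 3′ on the gene's strand. Promoters of 300 bases, from 250 before to 50 after the TSS, were in the table used for 66 of the 81 genes and for 15591 protein-coding genes with a window. The motif AAGATGGCG, which matches the site of the zinc finger factor YY1, was in 5 of the 66 (7.58%), against 2.12% of all promoters. All 5 belong to complex I, which holds 37 of the 81 genes. The first 50 transcribed bases of each of the 5 are given with the motif in capitals.

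Ndufa9, chr6:126849095-126849144, minus strand: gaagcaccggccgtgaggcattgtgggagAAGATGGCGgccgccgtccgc
Ndufc1, chr3:51408906-51408955, minus strand: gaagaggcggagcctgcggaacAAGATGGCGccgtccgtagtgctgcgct
Ndufs4, chr13:114388045-114388094, minus strand: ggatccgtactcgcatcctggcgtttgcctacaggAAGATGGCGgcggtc
Ndufs6, chr13:73328433-73328482, minus strand: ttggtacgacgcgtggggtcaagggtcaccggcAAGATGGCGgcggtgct
Ndufs7, chr10:80249449-80249498, plus strand: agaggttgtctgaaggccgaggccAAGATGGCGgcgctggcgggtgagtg

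In these 5 promoters the motif began 22 to 35 bases downstream of the TSS. Among all promoters that hold it, 61.6% had it downstream of the TSS, and 34.7% had it beginning 20 to 40 bases downstream. Ndufs7 is a core subunit that carries an iron-sulfur cluster, and the other four are accessory subunits.

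The motif GCGCANGCG, searched on both strands as the others were, matches the palindromic site of NRF1, a regulator of many respiratory genes. It was in 19 of the 66 promoters (28.8%), against 9.52% of all promoters. The motif CCGGAAG, the core of sites for ETS factors such as GABP, was in 16 (24.2%), against 12.5% of all. At least 1 of the 3 motifs was found in 33 of 66 (50%), against 21.5% of all promoters. The TATA box letters TATAAA, searched on the gene's strand at any position, were in 3 of 66 (4.55%), against 8.98% of all. In these 3 promoters they began between base -166 and base 4. Promoters of 5 genes from complexes II to V are given from base -120 to base 39, counted from 0 at the TSS, chosen because NRF1 or ETS letters, in capitals, lie close to the start.

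Sdha, chr13:74350201-74350360, minus strand: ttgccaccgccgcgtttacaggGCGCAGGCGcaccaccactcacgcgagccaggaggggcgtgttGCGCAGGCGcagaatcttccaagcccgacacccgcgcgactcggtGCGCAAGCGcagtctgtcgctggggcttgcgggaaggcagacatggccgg
Sdhd, chr9:50603810-50603969, minus strand: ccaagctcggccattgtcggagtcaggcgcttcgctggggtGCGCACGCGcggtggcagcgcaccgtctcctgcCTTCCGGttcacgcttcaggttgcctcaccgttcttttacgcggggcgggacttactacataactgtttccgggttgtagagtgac
Uqcr11, chr10:80406782-80406941, minus strand: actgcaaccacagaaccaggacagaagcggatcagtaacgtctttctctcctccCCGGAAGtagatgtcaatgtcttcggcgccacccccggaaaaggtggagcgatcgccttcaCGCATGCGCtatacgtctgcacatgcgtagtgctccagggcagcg
Cox6a1, chr5:115348919-115349078, minus strand: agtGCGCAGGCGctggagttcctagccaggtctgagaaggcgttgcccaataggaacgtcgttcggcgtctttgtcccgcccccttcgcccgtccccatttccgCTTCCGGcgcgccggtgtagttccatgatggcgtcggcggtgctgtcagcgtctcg
Atp5k, chr5:108434360-108434519, minus strand: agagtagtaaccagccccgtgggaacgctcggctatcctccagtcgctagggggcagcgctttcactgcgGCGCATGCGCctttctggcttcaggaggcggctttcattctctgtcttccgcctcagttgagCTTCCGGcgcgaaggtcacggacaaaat

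Sdha, which encodes the flavoprotein of succinate dehydrogenase, had 3 NRF1 matches, and the others in this group had both kinds of motif. Adjacent NRF1 matches that overlap, as in Atp5k, are the same palindrome read on both strands. Accessibility was close with and without these letters: the median level, a multiple of the value of 1 read as set out below, was 1.53 in the genes with an NRF1 match and 1.56 in those without. It was 1.52 in genes with an ETS match and 1.57 in those without. A match is only a run of letters, and no binding was measured.

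The deposited signal was read as depth-scaled coverage (CPM), taken as a mean over those bases of a window that hold a read. A level is that signal as a multiple of what 1 read is worth in its column, averaged over the 8 columns. The scale is per covered base, so it gives how deeply reads pile up and leaves out how much of a window is covered. Windows of different genes are set side by side below with that limit. For the same signal a multiple is larger in a deeper column, so multiples do not measure change between fractions or treatments. A weak window cannot fall below 1. The implied depth was 6.78 to 11.2 M reads a column. 4HT G1 was the shallowest, with a 1-read signal of 0.147, and EtOH G2 the deepest, at 0.0895. Markers of embryonic stem cells, such as Pou5f1, had a median level of 1.72, while the medians for markers of fibroblast, primitive endoderm, germ cell and muscle lay between 1.18 and 1.23.

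Promoter windows of oxidative phosphorylation genes were more accessible than the typical protein-coding gene, by a small margin. All 81 had a read in every column, and their median level was 1.53 (middle range 1.42 to 1.75), against 1.36 for the 18421 protein-coding genes read in all columns. The level was above that protein-coding median in 67 of 81 genes (82.7%). The ratio of the medians was 1.13 (SD over the 8 columns 0.0246), with the lowest ratio 1.09 in 4HT G2 and the highest 1.16 in 4HT LS. These are descriptions of chosen genes and were not tested. In all 8 columns taken one by one, 25 of the 81 genes (30.9%) exceeded the protein-coding median of that column, against 21.5% of all protein-coding genes. Only 2 (2.47%) exceeded it in no column, against 15.4% of all.

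Other genes needed in most cells had like levels. Cytosolic ribosomal protein genes had a median of 1.63 (82 genes), proteasome subunits 1.58 (39 genes) and mitochondrial ribosomal proteins 1.5 (74 genes). Within the respiratory system, assembly factors had a median of 1.53 (50 genes), the electron carriers and coenzyme Q enzymes 1.56 (14 genes), regulators of respiratory genes 1.73 (15 genes) and glycolysis genes 1.58 (21 genes). The oxidative phosphorylation genes thus lay within the range of these lists.

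**Figure D1:**
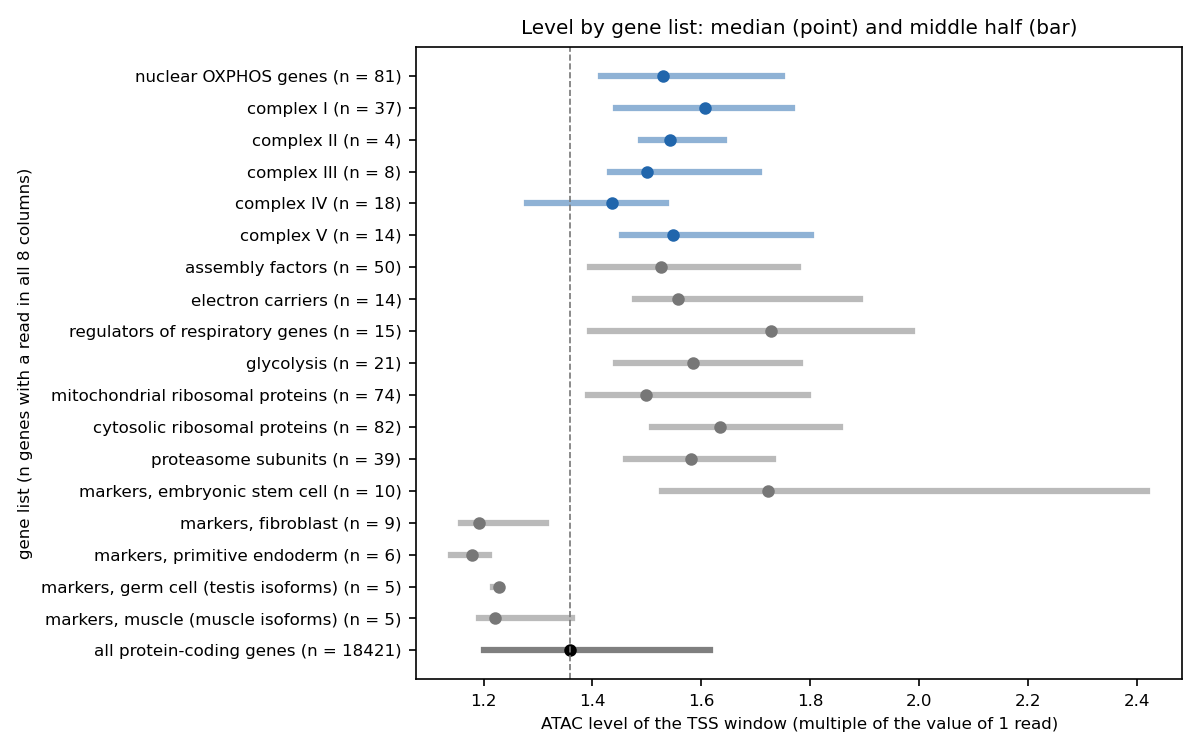
Levels of TSS windows by gene list, on the x axis as multiples of the value of 1 read; points are medians over genes and bars run between the quartiles. The nuclear OXPHOS genes (median 1.53) sit among the other housekeeping lists and to the right of all protein-coding genes (1.36), while the 4 lists of markers of other cell types sit to the left.

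Complex I, which oxidises NADH, had the highest median level of the 5 complexes, 1.61. Its most open windows were those of Ndufa11 at 2.79 and Ndufa13 at 2.63, both accessory subunits, and its least open was that of Ndufa1, an X-linked accessory subunit, at 1.16. Ndufa11 ranged from 2.18 to 3.51 over the 8 columns and Ndufa13 from 2.19 to 3.18, so the order of this pair is within their spread. Ndufa1 ranged from 1.0 to 1.28 and stood at the value of 1 read in 2 columns, although its promoter had 29 CpG sites, more than the 19 of the median gene. The 6 core subunits of complex I in the list had a median of 1.65, and the 31 accessory ones 1.59.

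Complex II, succinate dehydrogenase, was narrow in range. Sdhb, the iron-sulfur subunit, had a level of 1.86, Sdhc and Sdhd, the membrane anchors, had 1.57 and 1.41, and Sdha had 1.52. The ranges of the 4 overlapped, at 1.43 to 2.40 for Sdhb and 1.3 to 1.68 for Sdhd.

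Complex III carries electrons from ubiquinol to cytochrome c and had a median of 1.5. It held the most open window of the 81 genes, Uqcrq, a small subunit that binds ubiquinone. With 4HT, Uqcrq stood at 3.78 in G1, 4.23 in ES, 4.57 in LS and 4.49 in G2, and with EtOH at 4.28, 2.83, 3.97 and 4.71, with a mean of 4.11. Its lowest column exceeded the highest of the next complex III gene, Uqcrh, at 2.21. Before division by the value of 1 read, the signal of Uqcrq was highest in 4HT G1, at 0.557, against 0.412 in 4HT LS. The gene Gdf9, an oocyte growth factor, overlaps the same start region, so the window is shared between both genes. Uqcrfs1, the Rieske iron-sulfur protein, was lowest in the complex at 1.40.

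Complex IV, cytochrome c oxidase, had the lowest median, 1.44, with Cox6b2 at 3.04 and Cox7b2 at 1.04. Complex V had a median of 1.55, with Atp5g1, 1 of the genes for the c subunit of the rotor ring, at 3.18 and Atp5l, the g subunit, at 1.38. All 14 complex V windows were above the protein-coding median, as were all 4 of complex II and all 8 of complex III, against 11 of 18 in complex IV.

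**Figure D2:**
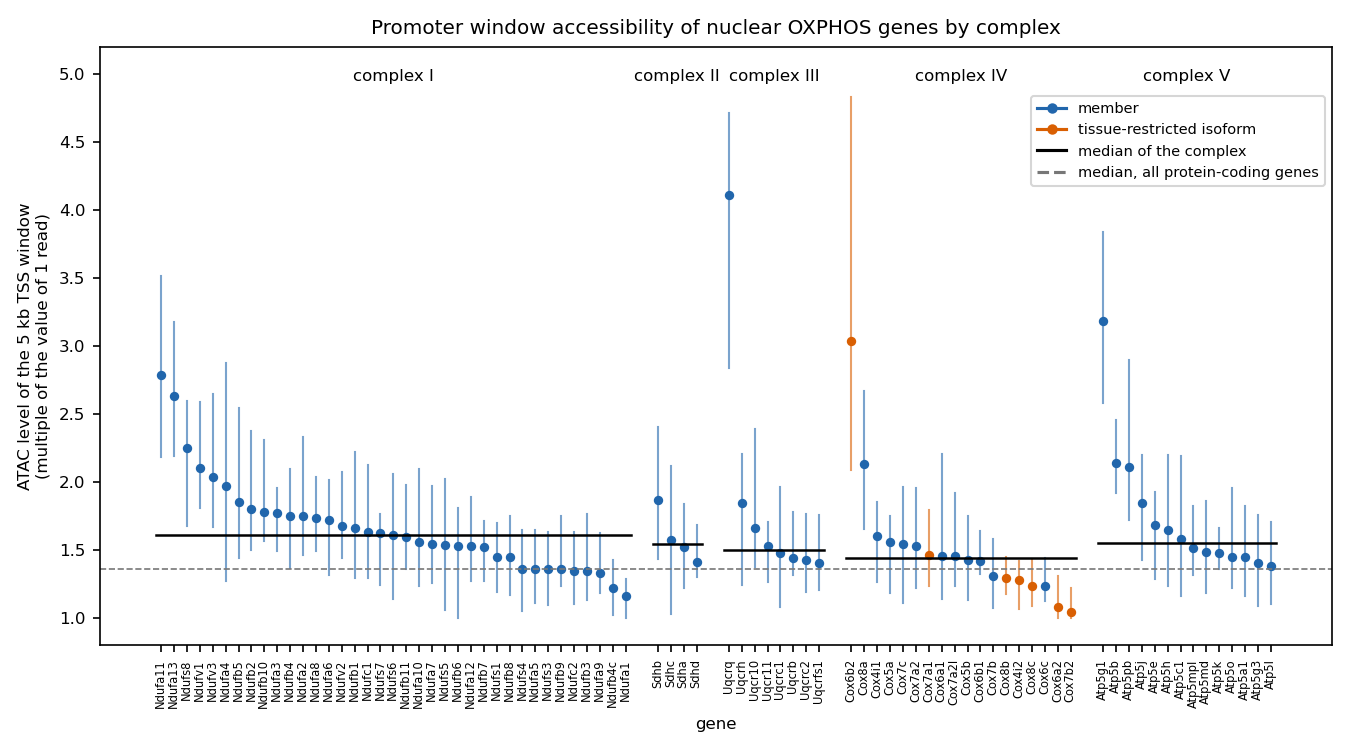
Level of each of the 81 TSS windows as a multiple of the value of 1 read (y axis), by complex; points are means over 8 pooled columns, thin lines run from the lowest to the highest column, black bars are medians of a complex. Uqcrq, Atp5g1 and Cox6b2 stand highest, at 4.11, 3.18 and 3.04, and 5 of the 7 tissue-restricted isoforms lie under the dashed protein-coding median of 1.36.

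The tissue-restricted isoforms of complex IV mostly had low windows, and Cox6b2 and Cox7a1 were the exceptions. Their median was 1.27 (7 genes), against 1.54 for the other 74 genes. The muscle isoform Cox6a2 stood at 1.08, against 1.46 for the widespread Cox6a1. The lung isoform Cox4i2 stood at 1.27, against 1.6 for Cox4i1. Cox7b2, a testis isoform, was at the value of 1 read in 4 of 8 columns with a mean of 1.04, against 1.31 for Cox7b. For Cox8, muscle Cox8b and testis Cox8c had 1.3 and 1.23, against 2.13 for Cox8a. The highest column of either restricted Cox8 gene, 1.45, lay below the lowest of Cox8a, 1.65.

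Cox6b2, the testis isoform of subunit 6b, was high. With 4HT its levels were 2.98 in G1, 2.35 in ES, 4.83 in LS and 2.68 in G2, and with EtOH they were 3.04, 2.41, 2.08 and 3.95. Cox6b1, its widespread counterpart, had 1.39, 1.35, 1.64 and 1.32 in 4HT and 1.37, 1.37, 1.45 and 1.44 in EtOH. Every Cox6b2 column lay above every Cox6b1 column. Before division by the value of 1 read, the signal of Cox6b2 was 0.440 in 4HT G1 and 0.436 in 4HT LS. The accessible region at Cox6b2 was 1722 bp wide, and an end of Fam71e2 lies 132 bp from the Cox6b2 start, so the signal cannot be given to either gene alone. Testis markers did not share the high level: the 5 germ cell marker windows had a median of 1.23 and a highest level of 1.46. Muscle Cox7a1 also differed little from its counterparts, at 1.46, against 1.53 for Cox7a2 and 1.45 for Cox7a2l, which encodes a factor of supercomplex assembly.

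In complex V, Atp5g1 and Atp5g3 encode the same mature c subunit with different import sequences. Atp5g1 ranged from 2.58 to 3.84 and Atp5g3 from 1.08 to 1.76, with no overlap. The remaining gene of this trio, Atp5g2, had no window within the distance limit.

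The isoforms also differ in CpG sites, which mark the promoters of widely used genes. The 4 restricted isoforms with a promoter entry had 2 to 10 CpG sites in 300 bases (median 8.5), against 5 to 43 (median 19.5) in the other 62 genes. The 150 bases from base -100 to base 49 are given for 2 isoform pairs with CG in capitals. CpG sites outside the 300 bases were not counted, and the accessible region at Cox6b2 is 1722 bp wide.

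Cox6b2, chr7:4753045-4753194, minus strand: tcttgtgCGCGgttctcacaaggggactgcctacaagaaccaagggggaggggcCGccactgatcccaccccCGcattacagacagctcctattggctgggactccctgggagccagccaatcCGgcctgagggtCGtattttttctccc
Cox6b1, chr7:30626065-30626214, minus strand: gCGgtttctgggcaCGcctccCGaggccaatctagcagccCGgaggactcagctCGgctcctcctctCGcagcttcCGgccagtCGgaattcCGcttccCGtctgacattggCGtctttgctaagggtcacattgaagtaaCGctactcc
Cox8b, chr7:140900397-140900546, minus strand: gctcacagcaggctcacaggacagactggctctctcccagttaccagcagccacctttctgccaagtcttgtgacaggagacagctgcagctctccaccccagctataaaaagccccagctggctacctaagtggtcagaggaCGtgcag
Cox8a, chr19:7217567-7217716, minus strand: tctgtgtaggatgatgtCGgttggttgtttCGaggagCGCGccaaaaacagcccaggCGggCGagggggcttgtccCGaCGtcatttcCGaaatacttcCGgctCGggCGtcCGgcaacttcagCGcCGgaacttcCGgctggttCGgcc

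These stretches held 6 CpG sites in Cox6b2, 12 in Cox6b1, 1 in Cox8b and 17 in Cox8a. Cox8b was the only 1 of the 4 whose 300 base promoter had the TATA letters, which began 4 bases downstream of the TSS. It lacked an accessible region near its start, whereas the region at Cox8a had a level of 3.98.

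The authors' accessible regions come from the same reads, so they are a closer view and not an independent readout. An accessible region of the authors' table lay within 500 bp of the TSS for 77 of 81 genes (95.1%), against 67.0% of all protein-coding genes with a window. Among genes with such a region, the strongest one had a median level of 2.04 (77 genes), against 1.83 for all protein-coding genes with one (12828 genes). Regions at Uqcrq and Atp5g1 were strongest, at 10.7 and 9.0, followed by Atp5b, the catalytic beta subunit of ATP synthase, at 5.07. The 4 genes without a region were Ndufb4c, Cox6a2, Cox8b and Atp5l.

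Start sites close to that of a neighbouring gene were frequent. Among the 66 genes with a promoter entry, 20 (30.3%) had a partner, against 9.88% of 15591 genes. A partner is a protein-coding gene on the opposite strand with its TSS within 650 bp of the window's midpoint. Partners included Mrpl47 of the mitochondrial ribosome beside Ndufb5, Timm8b of mitochondrial import beside Sdhd, and Rps28 of the cytosolic ribosome beside Ndufa7. The median level was 1.62 with such a partner and 1.53 without, against 1.69 and 1.32 over all genes, and the reads of such a window cannot be given to 1 gene of the pair.

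The first question of the series was whether FOXD3 depletion alters accessibility, and no oxidative phosphorylation gene passed the test for it. Of the 81 windows, 73 had a mean level of at least 1.3 and entered the limma fit over the table. The fit used treatment and fraction as terms on log2(signal + 0.1), centred across columns. The 8 left out were Ndufa1, Ndufb4c, Cox4i2, Cox6a2, Cox6c, Cox7b2, Cox8b and Cox8c. Cox7b, at 1.31, was just inside this limit and Cox8b, at 1.295, just outside. For 4HT minus EtOH, 0 of 73 were called at an adjusted p of 0.05, and the share called over all 15323 windows tested was 0.0131%. The smallest adjusted p among the 73 was 0.771. An unadjusted p under 0.05 was found for 8 of 73 (11.0%), against 5.28% of all windows. The median difference was 0.01 on the log2 scale, against 0.00 for all windows, 40 of 73 were above 0, and the median 95% interval reached 0.18 to either side.

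The window of Ndufa4, a small subunit first assigned to complex I and later found in complex IV, had the most negative difference. Its signal was 0.187, 0.156, 0.147 and 0.221 in 4HT G1, ES, LS and G2, against 0.179, 0.227, 0.339 and 0.257 in EtOH. In ES, LS and G2 the 4HT signal was the lower one, and in G1, where the 4HT column has the higher 1-read value, it was not. After centring, all 4 fractions gave a lower 4HT value, at -0.18, -0.26, -0.67 and -0.23. The fitted difference was -0.33 (SE 0.10, adjusted p = 0.771). Its region gave -0.45 (SE 0.20, adjusted p = 0.906).

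Sdhc had -0.23 (SE 0.09, adjusted p = 0.942), with signals of 0.151, 0.158, 0.121 and 0.171 in 4HT and 0.213, 0.167, 0.185 and 0.187 in EtOH. The 4HT value was lower in every fraction on this scale, and after centring in 3 of 4. Cox7a2, of complex IV, had -0.22 (SE 0.08, adjusted p = 0.942). The gamma subunit gene of ATP synthase, Atp5c1, had the most positive difference. Its signals were 0.274, 0.164, 0.198 and 0.170 in 4HT, against 0.159, 0.138, 0.172 and 0.121 in EtOH, higher with 4HT in each fraction. The fitted difference was 0.25 (SE 0.09, adjusted p = 0.871). Cox7c and Ndufv1, the NADH-binding subunit, had 0.22 (SE 0.09) and 0.20 (SE 0.10), with adjusted p-values of 0.942 and 0.959.

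Directions within fractions were mixed. Of the 73 windows, 6 were lower with 4HT in all 4 fractions and 6 were higher in all 4, while 25 were higher in 2 of 4. The median over members was 0.04 in G1, -0.02 in ES, 0.00 in LS and -0.04 in G2. The widest single values were 0.78 for Cox6b2 in LS and -0.67 for Ndufa4 in LS. With 1 column a group, neither a difference within 1 fraction nor the dependence of treatment on fraction could be tested.

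**Figure D3:**
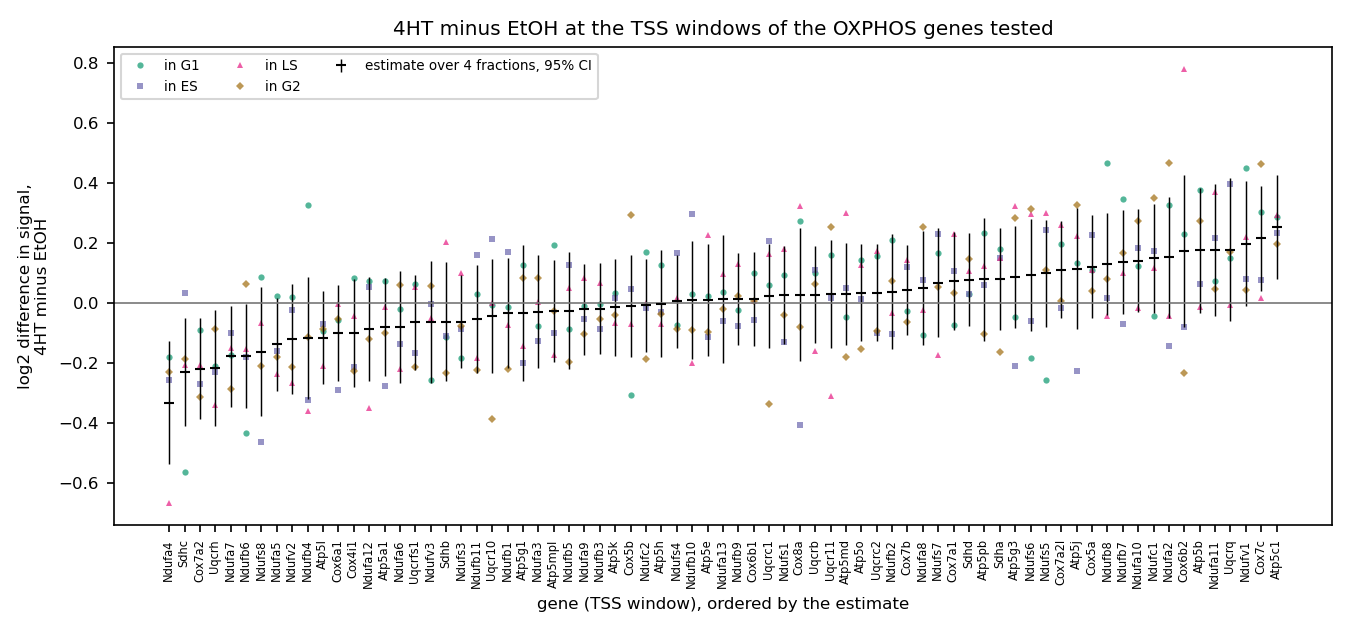
Centred log2 difference in window signal, 4HT minus EtOH (y axis), for the 73 genes tested, ordered by the fitted estimate; coloured markers are the 4 fractions, black bars the estimate with its 95% interval. Estimates run between -0.33 (Ndufa4) and 0.25 (Atp5c1), and markers of different fractions lie on both sides of 0 for most genes.

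At accessible regions, 41 genes had a region strong enough to test, with a level of at least 2, and 0 were called for 4HT minus EtOH, against 0% of 11010 regions. An unadjusted p under 0.05 was found for 2 of 41 (4.88%), against 5.42% of all regions, and the smallest adjusted p in limma was 0.887. The largest region difference was that of Atp5b, at 0.58 (SE 0.20, adjusted p = 0.887), and the lowest that of Ndufa7, at -0.46 (SE 0.25, adjusted p = 0.934).

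The second question was whether accessibility moves with the cell cycle. The fractions ES, LS and G2 were each set against G1 over both treatments, and since they share the G1 columns their values are given side by side without being compared. For ES minus G1, 0 of 73 windows were called, with 0.0196% called over the table, and 5 had an unadjusted p under 0.05 (6.85%), against 6.78% of all. For LS minus G1, 0 were called, with 0.0718% called over the table, and 0 had an unadjusted p under 0.05, against 6.90% of all. For G2 minus G1, 0 were called, with 0.0457% called over the table, and 5 had an unadjusted p under 0.05 (6.85%), against 5.64% of all. The member medians were -0.03, -0.01 and -0.02 in ES, LS and G2, and the median 95% interval reached 0.25 to either side. In limma the smallest adjusted p-values were 0.302, 0.718 and 0.799.

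Cox6a1, the widespread isoform of a complex IV subunit, had the largest fraction difference. Its signals in G1, ES, LS and G2 were 0.167, 0.180, 0.124 and 0.135 with 4HT and 0.133, 0.263, 0.152 and 0.126 with EtOH. ES was the highest fraction in both treatments. ES minus G1 was 0.41 (SE 0.11, adjusted p = 0.302), made of 0.30 with 4HT and 0.53 with EtOH, and its region gave 0.82 (SE 0.33, adjusted p = 0.643).

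Cox7c had the lowest ES value, at -0.35 (SE 0.12, adjusted p = 0.615), with -0.46 under 4HT and -0.23 under EtOH. In LS, the ends of the range were Ndufa4 at 0.24 (SE 0.14) and Atp5b at -0.26 (SE 0.15), with adjusted p-values of 0.767 and 0.749. Ndufa4 in LS was at -0.01 with 4HT and 0.48 with EtOH, and the difference between the treatments could not be tested. In G2, Ndufa4 and the accessory subunit gene Ndufa10 each had 0.31, with SEs of 0.14 and 0.12. At the lower end were 2 core subunit genes of complex I, Ndufs8 at -0.34 (SE 0.15) and Ndufv1 at -0.31 (SE 0.15). None of these 4 passed, with adjusted p-values of 0.830, 0.799, 0.830 and 0.853.

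**Figure D4:**
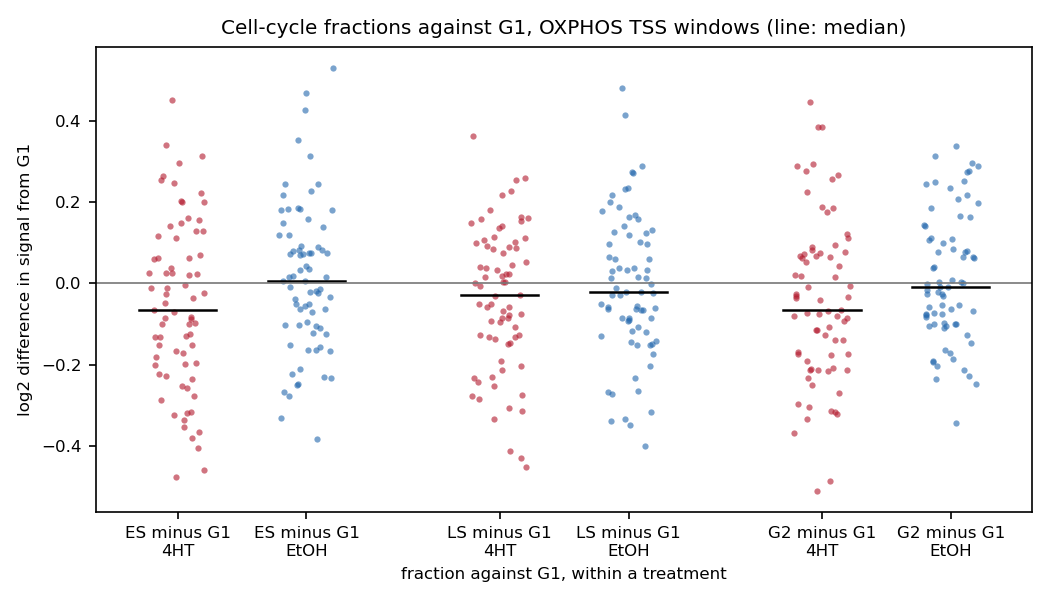
Centred log2 differences of ES, LS and G2 from G1 (y axis) for the 73 windows, with 4HT columns in red left of EtOH columns in blue; each point is a gene and lines are medians. Medians lie between -0.07 and 0.01, and the points of each group lie on both sides of 0.

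At regions, 0 of 41 were called in any fraction contrast, where 0%, 0% and 0.0182% of 11010 regions were called in ES, LS and G2. An unadjusted p under 0.05 was found for 4 of 41 in ES (9.76%), against 7.13% of all regions. It was found for 1 of 41 in LS and 1 in G2 (2.44% each), against 7.28% and 5.90% of all regions. The smallest adjusted p-values in limma were 0.643, 0.633 and 0.825. The largest region values in size were 0.82 for Cox6a1, -0.69 for Ndufs7 and 0.66 for Ndufa6, all in ES.

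No other gene of the pathway was called. Among 45 assembly factor windows tested, 0 were called in either direction for 4HT minus EtOH, nor were any of 13 electron carrier, 14 regulator and 20 glycolysis windows, with unadjusted p under 0.05 in limma for 2, 2, 1 and 2, where the share over all windows was 5.28%. The same lists had 0 calls in ES, LS and G2 against G1. Their unadjusted p was under 0.05 for 7, 2, 1 and 3 windows in ES, for 3, 2, 1 and 1 in LS, and for 6, 1, 0 and 3 in G2. Over all windows that share was 6.78% in ES, 6.90% in LS and 5.64% in G2. Several of these lists, such as the assembly factors with 7 of 45 in ES, held a larger share, in small counts that were not tested. The lowest adjusted p among these lists was 0.346, for a regulator window in ES.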

How the data were processed

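ATAC-seq libraries (16, of 8 groups) of mouse embryonic stem cells were analysed from 2 deposited tables, 38087 windows of 5000 bp around TSSs (38053 distinct) and 127646 accessible regions. Both tables hold the authors' coverage signal. They have 8 columns named by treatment and fraction without a replicate number, which were taken as pooled over libraries. 0 value columns were left unmapped. The submitters' processing notes name mm10, featureCounts and DESeq2. An aligner, a coverage program and any pooling steps are not given in the sources used here. From the values, the deposited signal is coverage scaled to the depth and averaged over covered bases, and a column's smallest value is that of 1 read. Implied depths follow from it (6.78 to 11.2 M reads).

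The members, gene lists and tests were chosen with earlier results of these data known. A gene's TSS is that of its promoter entry, or, for 15 members without one, the gene end nearest a window. Windows read in all columns with a level of at least 1.3 (15323), and such regions with a level of at least 2 (11010), were transformed as log2(signal + 0.1), which understates folds of low intervals, and centred by cyclic loess. They were fitted in limma 3.58.1 (R 4.3.3) with treatment and fraction as terms, an intensity trend, robust moderation and 3 residual degrees of freedom, with Benjamini-Hochberg adjustment over each table at 0.05. The 4 fractions repeat the treatment contrast and the treatments repeat each fraction contrast, so p-values reflect how pooled columns vary and say nothing of how cultures vary. A change in the make-up of a sorted fraction and a change per cell cannot be told apart. The pipeline was tested on simulated windows, with treatment changes planted on the log2(signal + 0.1) scale. There 27% of changes of 0.5 and 61.5% of changes of 1 were recovered. Recovery of fold changes in the signal, for windows that cannot fall below 1 read, was not tested. A lack of calls is therefore not a lack of change. Named genes were the highest and lowest of each complex, all of complex II, the isoform families, members without a window, and the 3 most positive and 3 most negative differences of each contrast. Other genes, and the sequences shown, were picked after their values were seen. Alternatives were other pseudocounts, filters, centrings and moderation, and omission of single fractions. Some items are not reported here.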

Additional observations from a re-analysis of the deposited data

How the results depend on the processing

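In 76 recounts over the 8 contrasts, with other pseudocounts (0.02 and 0.5), filters, centring, moderation or a fraction left out, 0 members were called. The lowest adjusted p for windows was between 0.610 and 0.9998 for 4HT minus EtOH, 0.258 and 0.9996 for ES, 0.650 and 0.9997 for LS, and 0.702 and 0.9999 for G2, each of the fractions minus G1. All 427 recomputed differences of the 48 named values kept their sign. These values were picked as the most positive and most negative of each contrast in the same columns, so kept signs are no separate support. As deposited, all windows shifted together within fractions, by a median log2 difference of 0.25 in G1 and -0.17 in LS for 4HT minus EtOH, and the differences within fractions in the report are relative to such shifts. Over the whole window table the calls ran between 0 and 4 for 4HT minus EtOH, 0 and 3 for ES, 0 and 11 for LS, and 4 and 8 for G2, and over regions between 0 and 3 for ES and 2 and 3 for G2. The ratio of the median level of members to that of all protein-coding genes was 1.11 to 1.15, and that of the restricted isoforms to the other members 0.789 to 0.855. The settings that leave out windows shared with another start site, or the restricted isoforms, were chosen after seeing the data. No paired analysis was possible because the columns carry no replicate number, and for the same reason neither the replicate block nor the omission of replicates was run. Depth limits weak windows, which cannot fall below 1 read, and the precision of differences: the median 95% interval reached 0.18 (4HT minus EtOH) or 0.25 (fractions) to either side for windows and 0.44 or 0.62 for regions, on the log2 scale. Differences larger than these intervals can still miss the adjusted threshold, as Cox6a1 at 0.41 did.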

Other observations

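Levels also varied among the other genes of the pathway. The names here were picked after their values were seen. Among assembly factors, Coa6 of complex IV had the highest level, 2.45, followed by Ndufaf3 of complex I at 2.33 and Bcs1l of complex III at 2.29, while Sdhaf4 of complex II had the lowest, 1.22. Cycs, the somatic cytochrome c, stood at 2.12, and Cyct, the testis cytochrome c, at 1.26, the same order as in most complex IV isoform pairs. Etfdh, which passes electrons from fatty acid oxidation to ubiquinone, had 2.66. Among regulators, Esrra, a nuclear receptor of respiratory genes, had 2.52 and Yy1 2.31, whereas Nrf1 had 1.36 and Ppargc1a, a coactivator best known in brown fat and muscle, 1.10. The mitochondrial DNA factors Tfb1m, Tfam and Polg had 2.25, 1.85 and 2.12. Glycolysis held the single most open window of these lists, Pgk1 at 3.54, with Eno1 at 2.81, Aldoa at 2.33 and Pkm at 2.27, against 1.21 for Hk1. Sdhaf4, Cyct, Ppargc1a and Hk1 were under the level of 1.3 needed for the limma fit, and none of the other windows named here was called in any of the 4 contrasts.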
